A study of Mus musculus with 12 samples.

Results

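Genes of 12 families of chromatin modifiers and remodelers were examined in C2C12 cells, a line of mouse myoblasts that divides in growth medium (GM) and fuses into myotubes when serum is lowered. The genes were chosen by name: protein-coding genes whose symbols begin with Hdac, Kdm, Kmt, Kat, Smarc, Chd, Dnmt, Tet, Setd, Prdm or Cbx in the numbered form of each family, together with Ezh1, Ezh2, Eed and Suz12. This gave 70 genes, of 9266 protein-coding genes and 10289 genes of all types that had a row in at least 1 of the 3 deposited RNA-seq tables. GENCODE M21, an annotation of the GRCm38 genome, holds 110 protein-coding genes with such names, so 40 of them had no row in the tables analysed here. A missing row is not taken as a failed test, since it cannot be told from a row left out of the tables as used here, and this holds for every share of annotated genes. The stable lines were made with lentivirus from a CMV vector and selected with puromycin, and each overexpressed GFP (the negative control), mouse METTL3 or mouse METTL14, the core writers of N6-methyladenosine (m6A) on RNA. The 4 groups, of 2 libraries each, were GFP in GM (day 0), GFP after 4 days in differentiation medium (D4), METTL3 in GM and METTL14 in GM. The titles of the METTL14 libraries say D0 and another label says D4, and the titles were followed.

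Each table belongs to 1 comparison, D4 against GM in GFP-overexpressing cells, METTL3 against GFP in GM, or METTL14 against GFP in GM, and keeps the genes that passed an FDR of 0.05 in the test made by the authors. A gene with a row in a table is called listed here. The tables hold no value per library. Besides the authors' own comparison, which was not used here, they give 1 quantity per gene, the mean normalized count over libraries. The results below are therefore the listing of each gene and its mean level, without a direction or size of change and without an SD, and a gene that was not listed cannot be called unchanged or silent. For the 1746 genes in more than 1 table the mean was the same in each, to within a relative difference of 4.77e-10, so it was taken over a common set of libraries, which the tables do not name, and it cannot be read as the level of any single group. Because long genes collect more reads, levels of different genes were compared as the mean normalized count per kb of exon, and a comparison without division by length or with another length is named as such. In such bulk samples, fewer cells that express a gene and less RNA per cell cannot be told apart.

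The targeted genes were looked at before the family members. Mettl3 was listed for METTL3 against GFP with a mean normalized count of 5827, and Mettl14 was listed for METTL14 against GFP with 6250.5 and also for D4 against GM. The introduced cDNAs are mouse sequences, so their reads count with those of the cells' own genes. All 6 markers of the skeletal muscle lineage had a row in at least 1 table, with mean normalized counts from 593 for Myf5 to 40372 for Myh3. Of the 4 fibroblast markers, Dcn, Pdgfra and Lum were listed, with mean normalized counts of 2776, 525 and 151. None of the 12 endothelial, leukocyte, adipocyte and epithelial markers was listed. The part of other cell types in the listing of the members was not tested.

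Chromatin packs DNA around histones, and enzymes that write, erase or read marks on histones and DNA set which genes can be transcribed. Histone acetyltransferases and deacetylases add and remove acetyl groups, methyltransferases and demethylases act on lysines, the DNMT and TET enzymes methylate DNA and oxidize methylated cytosine, and the SMARC and CHD ATPases move or evict nucleosomes. In muscle, class IIa deacetylases are known to hold back MEF2 factors, Polycomb repressive complex 2 (PRC2) is known to silence muscle genes in myoblasts, and SWI/SNF complexes are known to work with MyoD at muscle promoters.

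Most of the members were listed for the change from myoblast to myotube. Of the 110 annotated genes of these families, 67 (60.9%) were listed for D4 against GM, where 40.1% of all annotated protein-coding genes were listed. For METTL3 against GFP, 9 (8.18%) were listed beside 7.8% of all annotated protein-coding genes, and for METTL14 against GFP 8 (7.27%) were listed beside 4.91%. Genes that C2C12 cells may not express are counted in both bases here. Among genes with a row in at least 1 table the shares were nearer to each other: 95.7% of the 70 members and 95.2% of the 9266 protein-coding genes were listed for D4 against GM, 12.9% and 18.5% for METTL3, and 11.4% and 11.6% for METTL14. The members stood above all annotated genes for D4 against GM on the first base and close to all listed genes on the second, and for METTL3 they stood beside the background on the first base and below it on the second. Since a row in a table is a condition for being a member, the second set of shares is partly fixed by the rule.

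**Figure D1:**
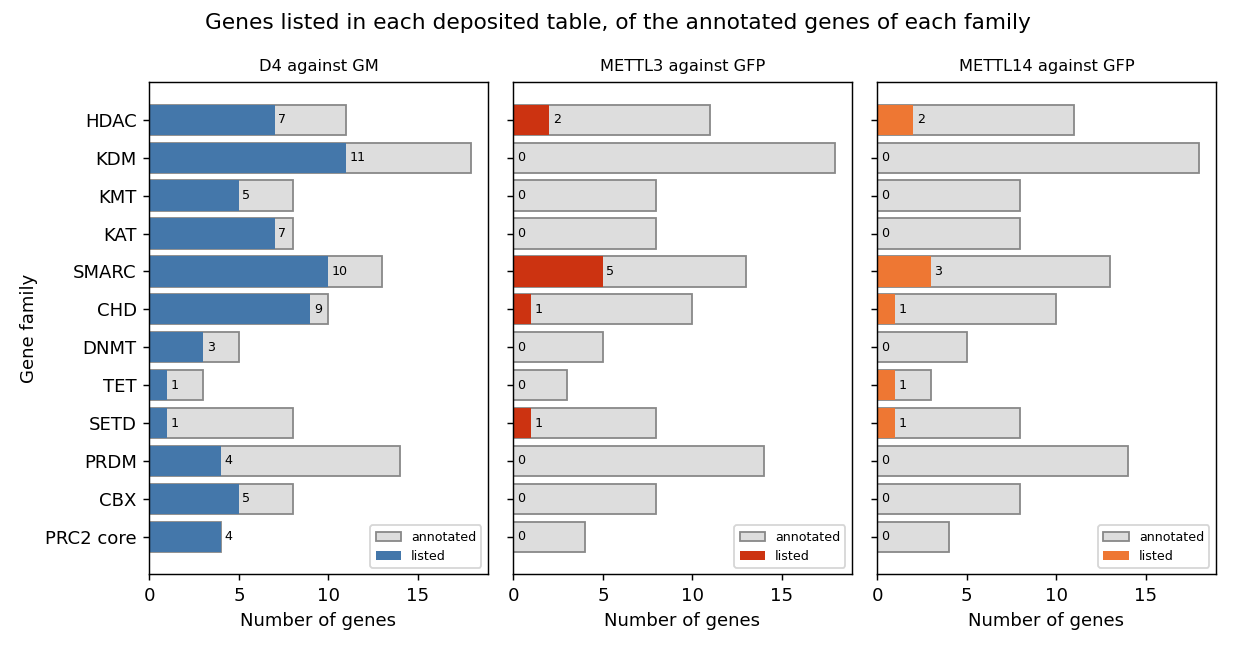
Number of genes listed in each deposited table (coloured bars, with the number beside them) within the annotated protein-coding genes of each family (grey bars), for D4 against GM, METTL3 against GFP and METTL14 against GFP. CHD, KAT and PRC2 core genes were listed in the largest shares for D4 against GM (90%, 87.5% and 100%), and SMARC genes in the largest number for METTL3 (5 of 13). Of all annotated protein-coding genes, 40.1% were listed for D4 against GM and 7.8% for METTL3.

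The levels of the members spread widely, around a median close to that of all listed genes per kb of exon. Without division by length their median mean normalized count was 949.6, and 65 of the 70 (92.9%) reached 100, while the median over all listed protein-coding genes was 545 and 82.1% of them reached 100. The members were also longer, as the median exon length was 7244 bases for the members and 4538 bases for all listed protein-coding genes. Per kb of exon the medians were 131 for the members and 115 for all listed protein-coding genes, with interquartile ranges of 53.4 to 248 and 39.2 to 273. By this measure 38 of the 70 members lay above the median of all listed protein-coding genes. The level ran from 3.34 per kb for Chd5 to 1029 per kb for Chd4, a 308-fold range within a single family.

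**Figure D2:**
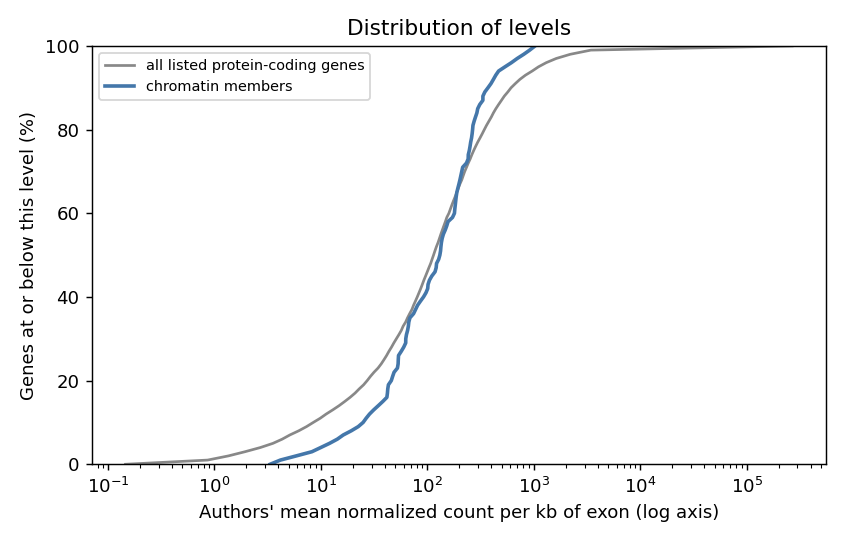
Cumulative distribution of the authors' mean normalized count per kb of exon (log axis) for the 70 members (blue) and the listed protein-coding genes with an annotated length (grey). The curves run close together around their medians of 131 and 115 per kb, and the members reach neither the lowest nor the highest levels of all genes.

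Among the acetyltransferases, the KAT family, 7 of 8 annotated genes were listed for D4 against GM, and Kat5 was not. The background was 40.1% of annotated protein-coding genes and 95.2% of those with a row. Kat2a, which encodes the GCN5 acetyltransferase of the SAGA complex, had the highest level of the family at 473 per kb (mean normalized count 1647). Its close relative Kat2b, which encodes PCAF, a coactivator of MyoD, was at 121 per kb (590.0). The level of Kat2a was 3.9 times that of Kat2b per kb of exon and 2.79 times without division by length. Kat7 (HBO1) was at 293 per kb, Kat6a (MOZ) at 184, Kat14 at 137 and Kat8 (MOF) at 67.5. Kat6b (MORF), whose annotated exons cover 16826 bases, was lowest at 46.7 per kb, although without division by length its mean normalized count of 786 was above that of Kat2b.

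Of the 11 classical deacetylase genes, the HDAC family, 7 were listed for D4 against GM and 2 for each overexpression. Beside these counts, 40.1% of all annotated protein-coding genes were listed for D4 against GM, 7.8% for METTL3 and 4.91% for METTL14. The class I genes Hdac2, Hdac3 and Hdac1 were at 588, 300.1 and 179 per kb, so that Hdac2 was 3.28 times as high as Hdac1, its partner in the NuRD, Sin3 and CoREST complexes. Hdac8, the remaining class I gene, had no row. The class IIa genes, whose proteins shuttle between nucleus and cytoplasm and bind MEF2, were spread widely, with Hdac7 at 255, Hdac5 at 133, Hdac4 at 36.3 and Hdac9 at 10.6 per kb. Hdac11, the class IV gene, was at 27.6 per kb. Hdac9 (mean normalized count 155) was listed for all 3 comparisons. Hdac7 (1721) was listed for METTL3 and for METTL14 but not for D4 against GM. A member without a row for D4 against GM must, by the rule of choice, be listed for an overexpression. Hdac4, Hdac5 and Hdac11 were listed for D4 against GM and for neither overexpression.

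Lysine methyltransferases of the KMT family had 5 of 8 annotated genes listed for D4 against GM and none for METTL3 or METTL14. Across all annotated protein-coding genes, 7.8% were listed for METTL3 and 4.91% for METTL14. Kmt5a, which encodes the enzyme that monomethylates lysine 20 of histone H4, was highest at 433 per kb (mean normalized count 2297). Kmt2d and Kmt2c encode large enzymes that methylate lysine 4 of histone H3 at enhancers. Kmt2d was at 209 per kb (4166) and Kmt2c at 53.7 per kb (1090.3), a ratio of 3.89 per kb of exon. Kmt2e was at 262 per kb and Kmt5b at 58.9 per kb, and Kmt2a, Kmt2b and Kmt5c had no row. Of the 8 numbered SETD genes, 1 was listed, where 40.1% of all annotated protein-coding genes were listed for D4 against GM. No contrast between the 2 families is read from genes without a row. That gene, Setd6 (mean normalized count 375, 197 per kb), encodes a lysine methyltransferase known for methylating the NF-kB subunit RelA, and it was listed for D4 against GM, METTL3 and METTL14. Setd2, which encodes the enzyme that trimethylates lysine 36 of histone H3, was among the 7 without a row.

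Of the PRDM family, zinc finger proteins with a domain related to the SET domain, 4 of 14 annotated genes were listed for D4 against GM and none for METTL3 or METTL14. Prdm4 was at 190.1 per kb (mean normalized count 934), Prdm2 at 150 per kb (1117), Prdm15 at 25.3 per kb (287) and Prdm8 at 8.08 per kb (39.2). Prdm1, Prdm14 and Prdm16, known as regulators of lineage choice in other tissues, had no row. As a background, 40.1% of all annotated protein-coding genes were listed for D4 against GM, 7.8% for METTL3 and 4.91% for METTL14.

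All 4 genes of the PRC2 core, which methylates lysine 27 of histone H3, were listed for D4 against GM. None was listed for METTL3 or METTL14. For D4 against GM the background was 40.1% of annotated protein-coding genes and 95.2% of those with a row. For METTL3 and METTL14 it was 7.8% and 4.91% of annotated ones. With 4 genes, nothing particular to PRC2 is read from these counts. The structural subunit Suz12 was at 280.2 per kb of exon (mean normalized count 1385), the catalytic subunit Ezh2 at 134 per kb (898), the reader subunit Eed at 121 per kb (464) and the alternative catalytic subunit Ezh1 at 102.04 per kb (759). In GRCm38 (GENCODE M21) these genes lie on 3 chromosomes, with Suz12 (ENSMUSG00000017548) at chr11:79993106-80034123, Ezh2 (ENSMUSG00000029687) at chr6:47530139-47595341, Eed (ENSMUSG00000030619) at chr7:89954654-89980983 and Ezh1 (ENSMUSG00000006920) at chr11:101191115-101226463. Ezh2 was 1.32 times as high as Ezh1 per kb of exon, 1.79 times per kb of longest transcript and 1.18 times without division by length. With the longest transcript as the length, Ezh2 at 322 per kb passed Suz12 at 317. No spread can be given for these ratios.

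Of the 8 CBX genes, whose chromodomains read methylated lysines, 5 were listed for D4 against GM and none for METTL3 or METTL14. Over all annotated protein-coding genes the shares were 40.1% for D4 against GM, 7.8% for METTL3 and 4.91% for METTL14. The heterochromatin protein 1 genes Cbx1 (HP1 beta) and Cbx3 (HP1 gamma) were at 266 and 109.8 per kb, and Cbx5 (HP1 alpha) had no row. Of the Polycomb CBX genes, Cbx6 was at 250.2 per kb (mean normalized count 2654), Cbx2 at 65.2 per kb (278) and Cbx7 at 53.3 per kb (346). How reads that fit several places were counted is not given in the sources used here, so counts of genes with near-identical copies elsewhere in the genome are uncertain.

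Lysine demethylase genes, the KDM family, were listed for D4 against GM in 11 of 18 cases and in none for METTL3 or METTL14. The background of annotated protein-coding genes was 40.1% for D4 against GM, 7.8% for METTL3 and 4.91% for METTL14. Nothing particular to the family is read from the absence. Kdm5c, which encodes an X-linked demethylase of lysine 4 of histone H3, was highest at 404 per kb (mean normalized count 2874), and Kdm5b, of the same subfamily, was lowest at 31.5 per kb (522). Kdm4a, Kdm4b, Kdm3a and Kdm3b, which act mainly on lysine 9 of histone H3, were at 242, 142, 156 and 87.0 per kb. Kdm6b, which encodes the lysine 27 demethylase JMJD3, was at 181 per kb (1259), whereas its relative Kdm6a (UTX) had no row. Kdm8 was at 41.7 per kb (99.7) and became the lowest KDM gene when the longest transcript was taken as the length. Kdm5a, Kdm1b and Kdm7a were at 75.7, 66.8 and 42.7 per kb, while Kdm1a, which encodes LSD1, had no row.

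For DNA methylation, Dnmt1, which encodes the maintenance methyltransferase that acts at replication, was at 333 per kb of exon (mean normalized count 2457). The de novo methyltransferase genes were far lower, with Dnmt3a at 21.7 per kb (361) and Dnmt3b at 13.9 per kb (70.9). All of these were listed for D4 against GM and for neither overexpression. Of protein-coding genes with a row, 95.2% were listed for D4 against GM, 18.5% for METTL3 and 11.6% for METTL14. Dnmt3l and Dnmt3c, which are known from germ cells, had no row. Among the genes for the TET dioxygenases, Tet2 (716, 42.4 per kb) was listed for D4 against GM, Tet1 (70.2, 4.54 per kb) was listed for METTL14 against GFP and in neither of the other tables, and Tet3 had no row.

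The SMARC genes encode ATPases and core subunits of the SWI/SNF and ISWI remodelers and related helicases. Of 13 annotated genes, 10 were listed for D4 against GM, 5 for METTL3 and 3 for METTL14, the largest number of any family for each overexpression. As shares these were 76.9%, 38.5% and 23.1%, beside 40.1%, 7.8% and 4.91% of all annotated protein-coding genes. For METTL14 the TET family had a larger share, 33.3% (1 of 3 genes). The core subunit genes were high: Smarcc2 (BAF170) was at 708 per kb, Smarcc1 (BAF155) at 333, Smarce1 (BAF57) at 242 and Smarcb1 (SNF5) at 215, and Smarcc2 was 2.13 times as high as Smarcc1. Of the exchangeable BAF60 subunits, Smarcd2 was at 269, Smarcd1 at 203 and Smarcd3 at 95.7 per kb. Smarcd3 encodes BAF60C, known as the BAF60 form that works with MyoD, and it was listed for METTL3 and METTL14 but not for D4 against GM. Of the ATPase genes, Smarca5 (SNF2H, the ISWI ATPase) was at 368 per kb (mean normalized count 2861) and Smarca2 (BRM) was the lowest of the family at 16.7 per kb (239). Smarcad1, a remodeler gene linked to replication, was at 62.8 per kb. The alternative SWI/SNF ATPase gene Smarca4 (BRG1) and Smarca1 had no row.

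CHD genes encode remodelers, most of them with chromodomains (the protein of Chd1l has a macrodomain instead), and 9 of the 10 were listed for D4 against GM, with Chd7 as the exception. Chd4 and Chd3, the Mi-2 ATPases of the NuRD complex, had the highest levels of all members at 1029 and 865 per kb (mean normalized counts 8250.0 and 7304), so that Chd4 was 1.19 times as high as Chd3. The next of the family was Chd1 at 186 per kb, followed by Chd8 at 130, Chd2 at 79.4, Chd6 at 62.7, Chd1l at 53.1 and Chd9 at 47.8. Per kb of longest transcript Chd8 (252) was above Chd1 (205), and Chd9 (92.2) above Chd1l (76.1). Chd5, known as a gene of neurons and testis, was the lowest of all members at 3.34 per kb (32.0). Only Chd9 of this family was listed for METTL3 and for METTL14. Among all annotated protein-coding genes, 40.1% were listed for D4 against GM, 7.8% for METTL3 and 4.91% for METTL14.

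**Figure D3:**
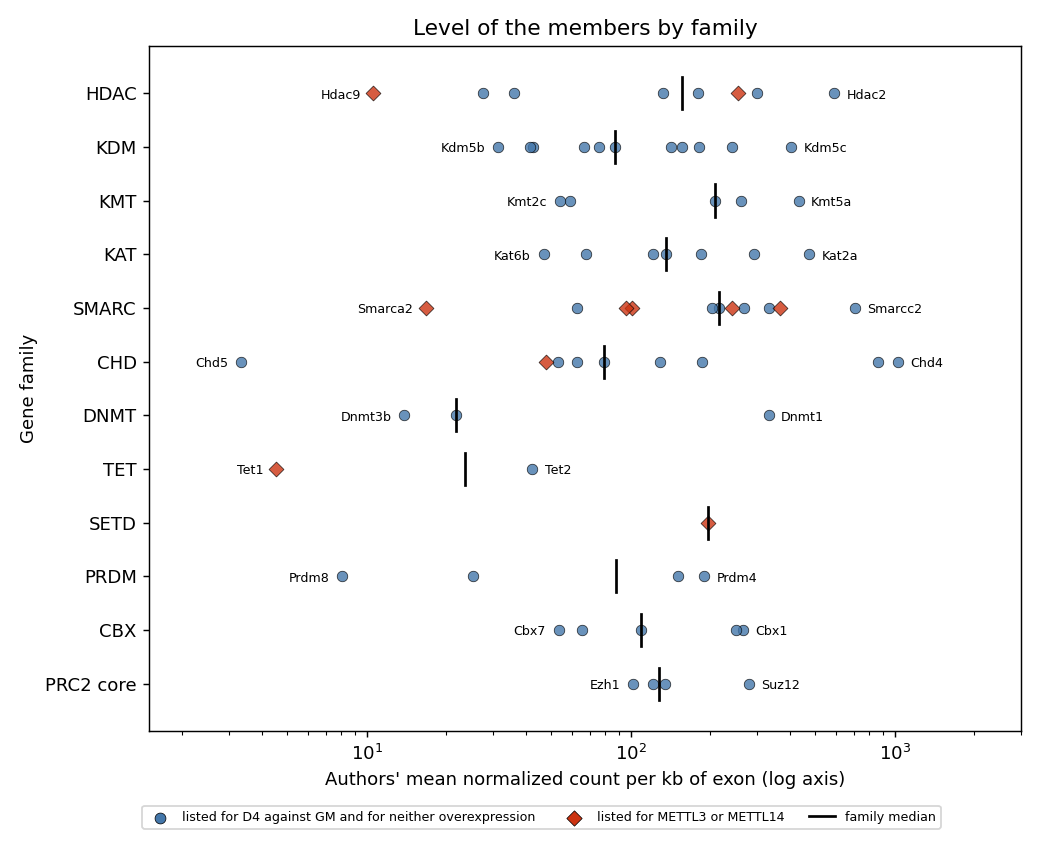
Authors' mean normalized count per kb of exon (log axis) of each of the 70 members by family. Each point is 1 gene, black bars are family medians, and red diamonds are the 10 genes listed for METTL3 or METTL14; the highest and lowest gene of each family are named. Family medians ran from 21.7 per kb for DNMT to 215 per kb for SMARC.

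For METTL3 or METTL14 against GFP, 1997 of the 9260 protein-coding genes with a row and an annotated length were listed. Of the 70 members, 10 were listed. They fell in 5 families (HDAC, SMARC, CHD, SETD and TET), and none of the 65 annotated genes of the other 7 families was listed for either, where the background was 7.8% of annotated protein-coding genes for METTL3 and 4.91% for METTL14. These 2 shares are for each comparison alone, whereas the absence is for both together. The 7 families were put together because none of their genes was listed, so nothing particular to them is read from the absence. The comparisons share the GFP libraries in GM, so the tables are not independent of each other. Smarca5, Setd6, Chd9, Smarca2 and Hdac9 were listed for METTL3, for METTL14 and for D4 against GM. Hdac7 and Smarcd3 were listed for METTL3 and METTL14, Smarce1 and Smarcal1 (an annealing helicase of stalled replication forks) for METTL3 and D4 against GM, and Tet1 for METTL14. Of the 1997 protein-coding genes listed for either overexpression, 1713 were listed for METTL3 and 1078 for METTL14, so many genes were listed for both. Their share was not set beside that of the members, so the members' overlap is not called like or unlike the background. How many of all protein-coding genes were also listed for D4 against GM was not counted. Nothing particular to the members is therefore read from their overlap between tables. For Hdac7, Smarcd3 and Tet1, which had no row for D4 against GM, being listed for an overexpression was fixed by the rule of choice. In GRCm38 the remodeler genes among them are Smarca5 (ENSMUSG00000031715) at chr8:80698507-80739497, Smarca2 (ENSMUSG00000024921) at chr19:26605050-26778322, Smarce1 (ENSMUSG00000037935) at chr11:99209047-99231017, Smarcal1 (ENSMUSG00000039354) at chr1:72583251-72633134, Smarcd3 (ENSMUSG00000028949) at chr5:24590818-24624411 and Chd9 (ENSMUSG00000056608) at chr8:90828352-91054516. The enzyme genes are Hdac7 (ENSMUSG00000022475) at chr15:97792664-97844502, Hdac9 (ENSMUSG00000004698) at chr12:34047580-34917095, Setd6 (ENSMUSG00000031671) at chr8:95715881-95719010 and Tet1 (ENSMUSG00000047146) at chr10:62804570-62908996. The levels of these 10 genes ran from 4.54 to 368 per kb with a median of 98.4, beside a median of 120.1 over all 1997 protein-coding genes with a length that were listed for METTL3 or METTL14.

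**Figure D4:**
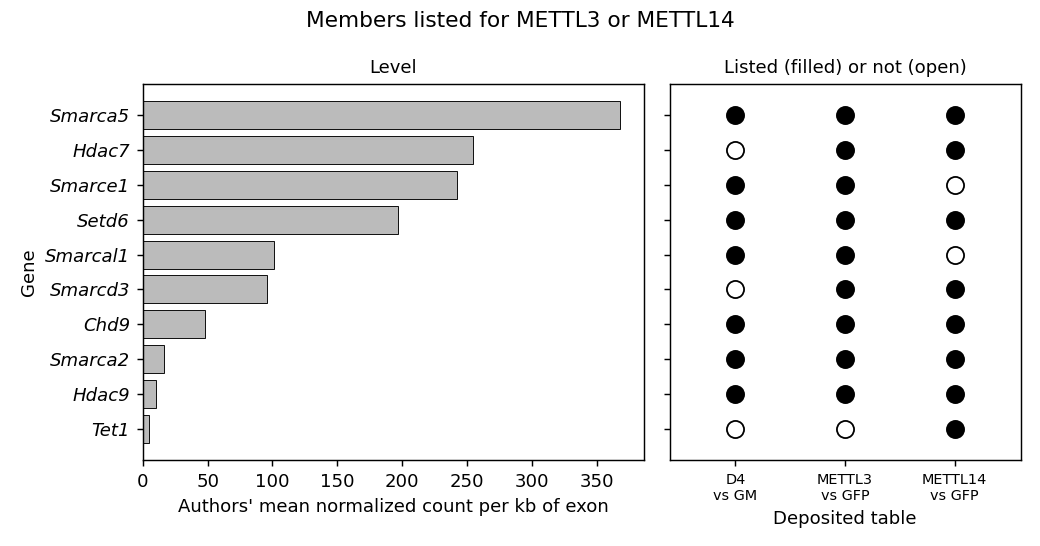
Left, authors' mean normalized count per kb of exon of the 10 members listed for METTL3 or METTL14 (bars from 0). Right, the tables that list each gene (filled) or do not (open). Hdac7, Smarcd3 and Tet1 had no row for D4 against GM, and Smarce1, Smarcal1 and Tet1 were listed for 1 overexpression alone.

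Promoters of the members were searched for the E2F motif, a sequence found at many genes of the cell cycle and bound by E2F factors, written as TTTCCCGC or TTTGGCGC on either strand. RefSeq promoter windows of GRCm38.p6, which hold 250 bases before and 50 bases after a start site, were found for 56 of the 70 members, in 79 windows. The motif was in 6 of these windows (7.59%), in 3.06% of 9373 windows of listed protein-coding genes and in 1.56% of all 32851 windows. The stretches around the matches are shown because they include both the catalytic and the structural PRC2 gene and the maintenance methyltransferase gene, with the motif in capitals and each sequence on the strand of its gene. They lie at chr6:47595010-47595037 (minus strand) for Ezh2, chr11:79992877-79992904 (plus) for Suz12, chr9:20952574-20952600 (minus) for Dnmt1, chr6:51470438-51470465 (plus) for Cbx3, chr15:99702146-99702173 (plus) for Smarcd1 and chr10:85916914-85916941 (minus) for Prdm4.
Ezh2: ggttgctgcgTTTGGCGCtcggtccggt
Suz12: gacccctcatTTTCCCGCgaattcagtt
Dnmt1: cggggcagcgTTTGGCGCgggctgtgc
Cbx3: ggagccccgcTTTGGCGCgctccgagac
Smarcd1: tcagcacgccTTTCCCGCtagtcgcccc
Prdm4: gcggggccggGCGGGAAAtgttaggaga
The Prdm4 stretch holds the motif on the opposite strand. All of these genes were listed for D4 against GM and for neither overexpression, as were 60 of all 70 members. The E-box of muscle promoters, CAGCTG, was in 21.5% of member windows and 16.2% of windows of listed protein-coding genes, and the CCAAT box, CCAAT on either strand, in 35.4% and 37.6%. The members' windows had a median GC content of 65.7%, beside 60.7% for listed protein-coding genes. A match is a description of the sequence and not a bound site.

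Other chromatin genes that the naming rule left out were counted from 6 lists of complex partners and related enzymes. Of their 83 genes, 59 (71.1%) were listed for D4 against GM, 7 (8.43%) for METTL3 and 3 (3.61%) for METTL14. Of all annotated protein-coding genes 40.1%, 7.8% and 4.91% were listed in these tables, so the share for METTL3 was near the background and that for METTL14 below it. Polycomb partners were listed for D4 against GM in 14 of 21 cases, SWI/SNF partners in 10 of 18 and NuRD partners in 6 of 8. The NuRD and Polycomb histone chaperone gene Rbbp7 was the highest of these at 1171 per kb, above Chd4, and the NuRD genes Mbd3 and Mta1 were at 961 and 790.3 per kb. Other histone methyltransferases were listed for D4 against GM in 15 of 19 cases and for METTL3 in 5, namely Prmt5, Dot1l, Suv39h1, Smyd1 and Nsd2, of which Prmt5 (486 per kb) was also listed for METTL14. The other genes listed for an overexpression were Brd7 (SWI/SNF, for both), Phf19 (PRC2, for METTL3) and Pcgf5 (PRC1, for METTL14). Acetyltransferases and sirtuins outside the rule were listed for D4 against GM in 8 of 10 cases, and genes that maintain or read DNA methylation in 6 of 7, with none of either list for METTL3 or METTL14.

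Some members share exons with other genes, and whether strand was used in counting is not given in the sources used here. No exon base of 37 members lay in another annotated gene, and more than 10% did for 8. The share was 48.2% for Smarcd3, where Chpf2 was the partner with the longest overlap, 29.1% for Prdm8, 24.6% for Kdm3b, 22.4% for Hdac4, 19.3% for Chd2, 17.9% for Hdac11, 14.7% for Kat14 and 12.7% for Smarcd1. Reads from these stretches may belong to either gene, so the listing and the levels of these genes, Smarcd3 above all, are less certain than those of the others.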

How the data were processed

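RNA-seq of 8 C2C12 libraries in 4 groups was used, grouped by sample titles; the 4 MeRIP-seq libraries were not analysed here. Alignment by the authors was to GRCm38 with hisat2, gene counts came from featureCounts (Ensembl annotation), groups were compared with DESeq2, and genes at FDR ≤ 0.05 were kept. The deposited mean normalized count is a signal: the authors divided counts by size factors and took the mean over a set of libraries that the tables do not name. The tables also hold 5 columns of the authors' comparison (log2 fold change, its standard error, test statistic, p-value, adjusted p-value), which were not used, so no test and no direction is given. The deposited tables hold no depth per library, and no depth was taken from elsewhere.

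Gene lengths (merged exons) came from GENCODE M21 on GRCm38, an older annotation release than the authors'; 10282 of 10289 identifiers matched. Promoter windows came from RefSeq (GRCm38.p6), matched by symbol. The members, gene lists and motifs were chosen with earlier results of these data known. Named were members listed for METTL3 or METTL14, PRC2 core genes, the highest and lowest member of each family and both genes of paralog pairs, as written beforehand; further members were named after their values were seen. Some items are not reported by name here. Protein identity between paralogs, which had been planned, was not computed. Alternatives were a minimum mean normalized count of 100 or 10, another base for the shares, all gene types, no Prdm genes and other lengths. Exon merging and the naming rule were tested on made-up cases with known answers. Python 3.11.15, pandas 2.3.3, NumPy 2.4.6, SciPy 1.17.1 and matplotlib 3.10.9 were used.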

Additional observations from a re-analysis of the deposited data

How the results depend on the processing

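The share of members listed for D4 against GM was 95.7% of the 70 members and moved to 60.9% with the 110 annotated genes of the families as the base, because genes without a row then count. Of all protein-coding genes, 95.2% of those with a row and 40.1% of those annotated were listed. Over a minimum mean normalized count of 100, no Prdm genes and the annotated base, the share ran from 8.18% to 13.8% for METTL3 and from 7.27% to 12.1% for METTL14, and without the annotated base from 95.5% to 96.9% for D4 against GM. Of all protein-coding genes with a row, 18.5% were listed for METTL3 and 11.6% for METTL14, and of all annotated ones 7.8% and 4.91%. Taking all gene types gave the same 70 genes and so tested nothing. The median level of members, 131 per kb of exon, moved to 187 per kb of longest transcript, and was 949.6 mean normalized counts without division by length; a minimum of 10 removed no member. With the longest transcript, 10 of the 11 families with at least 2 members kept their highest gene (not the PRC2 core) and 10 kept their lowest (not KDM). Genes between the highest and the lowest can also change places. The mean has no SD, so no difference in level could be set against replicate error, and the deposited tables hold no depth per library. No paired analysis was possible because the tables hold no value per library.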

Other observations

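Some of the genes lie close together in the genome (GENCODE M21, GRCm38). Only genes of the 12 families were considered, so other genes can lie within a gap. Chd3 and Kdm6b lie near each other on chromosome 11, with 29.1 kb between them. Chd3 runs from 69343273 to 69369406 and Kdm6b from 69398508 to 69413675. Both are on the minus strand and both were listed for D4 against GM. The Polycomb genes Cbx2 and Cbx8 lie on the same chromosome with a gap of 5.03 kb, and Cbx2 was listed for D4 against GM while Cbx8 had no row. On chromosome 15, Cbx6 and Cbx7 are 81.1 kb apart and both were listed for D4 against GM, with levels of 250.2 and 53.3 per kb of exon. Chromosome 11 held 11 of the 70 members, more than any other chromosome. The share of all protein-coding genes on chromosome 11 was not counted, so no clustering of the members is read from this.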
